A study of Mus musculus with 23 samples.

Results

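Sarcolipin and 8 further genes of calcium handling in the sarcoplasmic reticulum of skeletal muscle were followed across 9 groups of mouse muscle. The 9 genes were Sln, Atp2a1, Atp2a2, Casq1, Casq2, Ryr1, Tmem38a, Pvalb and Cacna1s. They were chosen by symbol, with earlier results of these arrays known, and they are 9 of the 12393 genes with a probe set of their own. The array reads them with 14 probe sets, and all 9 were bright enough to be tested.

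Total RNA of the gastrocnemius, a calf muscle of mostly fast fibers, was measured on 23 Affymetrix arrays. The 8 emerin KO (knockout) arrays come from mice without emerin: 2 from non-injected muscle (day 0), 3 on day 3 and 3 on day 4 after an injection. The 9 lamin A/C KO arrays come from mice without lamins A and C, with 3 arrays on each of days 0, 3 and 4, and here day 0 is itself labelled as a time after injection. The 6 control arrays, 2 on each day, are named as controls of the lamin A line and were non-injected on day 0. No controls labelled for the emerin line were analysed here, so emerin genotype and mouse line cannot be told apart in emerin KO minus control. The series describes a staged degeneration and regeneration of the muscle. The injected agent, the strain and the age are not given in the sources used here. The genotype of control day 4 replicate 2 was taken from its title. Whether arrays of a group came from separate animals is not labelled, so errors measure the spread between these samples, which may be technical.

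A muscle fiber contracts when calcium leaves the sarcoplasmic reticulum, its internal calcium store, and relaxes when calcium is pumped back. The voltage sensor of the transverse tubule, with Cacna1s as its main subunit, opens the release channel Ryr1, while the channel protein Tmem38a lets potassium flow to balance the charge. Casq1 and Casq2 are calsequestrins, which hold calcium inside the store. The pumps SERCA1 (Atp2a1, fast fibers) and SERCA2 (Atp2a2, among striated muscles mainly slow fibers and heart) return calcium to it. Parvalbumin (Pvalb) soaks up calcium in the cytosol of fast fibers. Sarcolipin (Sln) is a micropeptide of the reticulum membrane that binds the pumps and lowers calcium uptake. In mice Sln is known for high levels in the atria and in developing muscle and for low levels in adult fast muscle.

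The knocked-out genes were read first, as a check of the labels. The brightest Lmna probe set averaged 77.8, 61.1 and 70.8 signal units on days 0, 3 and 4 in muscle lacking lamins A and C, against 890, 3992 and 3744 in control muscle, and passed as lower on each day. The second in brightness averaged 606, 993 and 686 in lamin A/C KO and 638, 2310.3 and 2014 in control, and the 2 dimmer sets were higher in lamin A/C KO on day 3, at 461 and 389.8 against 195 and 21.0 in control. The sources used here do not place these sets relative to the deleted part. Emd averaged 418, 262 and 207 on those days in emerin KO, against 678, 766 and 692 in control. It passed as lower on days 3 and 4 but not on day 0 (-0.65 ± 0.30, adjusted p = 0.274), where the arrays read 372 and 465 in emerin KO and 587 and 769.6 in control. The tissue carried its markers: the summed signal of 10 mature fast fiber markers was 247646 to 261393 on emerin KO day 0 arrays, 221337 to 291635 on lamin A/C KO day 0 arrays and 252114 to 255363 on control day 0 arrays. RNA quality was uneven. The 3'/5' signal ratio of Gapdh, a control transcript read at both ends, was 4.79, 6.09 and 3.62 on day 3 and 2.89, 1.40 and 5.30 on day 4 in emerin KO, against 0.822 to 1.64 on the other 17. Signals below are MAS5 values, rescaled to a trimmed mean of 500 on each array. A difference is a log2 difference of (signal + 32) with its standard error (SE). A gene passed the test where limma's p, adjusted over the 11164 genes tested by Benjamini-Hochberg, was under 0.05. Because the genes were chosen with results known, these calls describe them and support nothing further.

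Sarcolipin had the widest differences between genotypes of the 9 genes, and the 2 knockouts departed from control in opposite directions and on different days. On day 0 its signal was 371 and 585 in emerin KO, 7402, 4958 and 7107 in lamin A/C KO, and 711 and 667 in control muscle. All 3 lamin A/C KO arrays stood above both controls and both emerin KO arrays below them. In either direction, arrays stood apart from control for 27.2% of all genes in lamin A/C KO and 44.1% in emerin KO. The lamin A/C KO mean of 6489 ± 1334 (SD, n = 3) compares with a control mean of 689 ± 30.8 (SD, n = 2). The difference was 3.16 ± 0.22, or 8.91-fold, and Sln was the 1 gene of the 9 that passed as higher in lamin A/C KO than in control muscle on day 0. Of all genes 0.896% passed there, 0.752% as higher. Lamin A/C KO day 0 is labelled as after an injection and control day 0 as non-injected, so genotype and injection cannot be told apart here. Each lamin A/C KO value below that uses day 0 rests on the same arrays. Emerin KO minus control on day 0 was -0.53 ± 0.24 and did not pass.

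After injury the order changed. On day 3 Sln read 264, 212 and 217 in emerin KO, 1787, 1921 and 2143 in lamin A/C KO, and 3397 and 2839 in control. On day 4 it read 1264, 1719.9 and 964 in emerin KO, 3992, 4917 and 5279 in lamin A/C KO, and 5910.1 and 5971 in control. On both days every emerin KO array lay under every lamin A/C KO array, and every lamin A/C KO array under both controls. In either direction, lamin A/C KO and control arrays stood apart for 30.9% of all genes on day 3 and 22.6% on day 4. For emerin KO and lamin A/C KO the shares were 28.6% and 34.6%, and for emerin KO and control 41.3% and 37.2%. Emerin KO minus control was -3.58 ± 0.22 on day 3, a fold of 0.0834, and -2.19 ± 0.22 on day 4, a fold of 0.220, and both passed. Both calls held under every alternative tried that gave a value, including the Gapdh ratio as a covariate. On day 3 that ratio was 3.62 to 6.09 in emerin KO and 0.957 to 0.976 in control. As these ranges do not overlap, the covariate cannot separate RNA quality from genotype on that day. Leaving out the arrays of Gapdh ratio over 2 gave no day 3 value. Lamin A/C KO minus control was -0.67 ± 0.22 on day 3 and -0.34 ± 0.22 on day 4, and neither passed. The direct difference of emerin KO minus lamin A/C KO was -3.69 ± 0.22, -2.92 ± 0.19 and -1.85 ± 0.19 on days 0, 3 and 4 and passed on each day. The day 4 value, at -1.42, did not pass with the Gapdh ratio as a covariate.

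**Figure D1:**
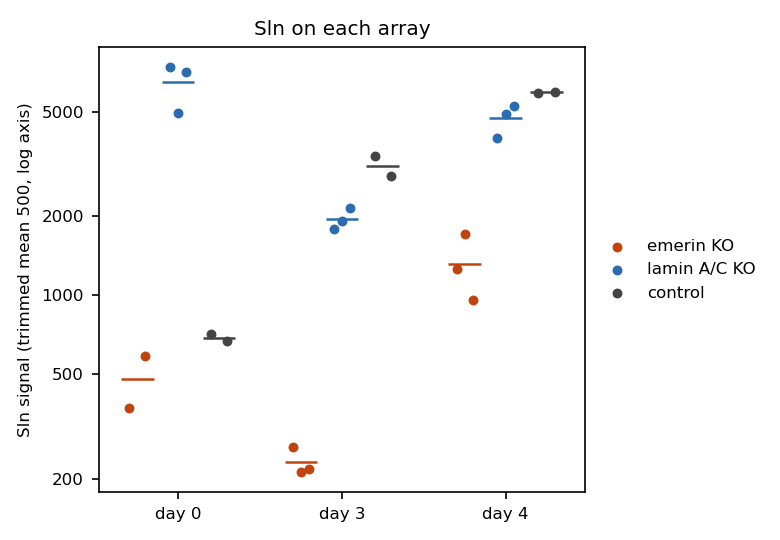
Sln signal (MAS5, trimmed mean 500, log axis) on each of the 23 arrays by day, with emerin KO, lamin A/C KO and control from left to right; points are arrays and bars are group means. On day 0 the lamin A/C KO arrays lie between 4958 and 7402, above the other 2 genotypes, and on days 3 and 4 the emerin KO arrays are the lowest.

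The time course of Sln differed in direction as well as in size. In emerin KO it was lower on day 3 (-0.93 ± 0.22) and higher on day 4 (1.40 ± 0.22) than on day 0. In lamin A/C KO it fell, with -1.70 ± 0.19 on day 3, and on day 4 it was back within the day 0 range on 1 of 3 arrays (-0.44 ± 0.19, not passed). That day 4 difference passed as lower in 4 of 34 alternatives. Among them were leaving out lamin A/C KO day 0 replicate 2 (-0.62) and the Gapdh ratio as a covariate (-0.46). In control Sln was higher than on day 0 on day 3 (2.12 ± 0.24) and on day 4 (3.05 ± 0.24). The emerin KO fall on day 3 did not pass without emerin KO day 0 replicate 2 (-0.62) or with the Gapdh ratio as a covariate (-0.39). The difference between a knockout's change and control's change passed in all 4 cases. It was -3.05 ± 0.32 on day 3 and -1.65 ± 0.32 on day 4 for emerin KO, and -3.82 ± 0.30 and -3.49 ± 0.30 on those days for lamin A/C KO. The share of genes passing these 4 tests was 2.64%, 0.573%, 0.17% and 0.206%. The lamin A/C KO values use its day 0 arrays, labelled as after an injection, and lamin A/C KO minus control did not pass on day 3 or 4. The emerin KO day 4 call was lost in 9 of 34 alternatives, among them leaving out emerin KO day 0 replicate 2 (-1.35) and each control array of days 0 and 4 (-1.70 to -1.61). From low to high, mean Sln ran from emerin KO day 3 through emerin KO day 0, control day 0, emerin KO day 4, lamin A/C KO day 3, control day 3, lamin A/C KO day 4 and control day 4 to lamin A/C KO day 0. Arrays of neighbours in that order overlapped only between control day 4 and lamin A/C KO day 0. The second Sln probe set was dim, at 13.1 to 168, and with its mean taken with the brighter set the lamin A/C KO minus control difference on day 0 was 2.07.

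Markers of other muscle states were read beside Sln. On day 0, 4 of 9 regenerating fiber markers passed as higher in lamin A/C KO than in control: the embryonic and atrial light chain Myl4 (1.80), the perinatal myosin Myh8 (1.52), the cardiac and embryonic troponin Tnnt2 (1.46) and the acetylcholine receptor subunit Chrna1 (0.64). The second Myl4 probe set had the opposite sign (-0.56) and did not pass. Their summed signal was 24611 to 31333 in lamin A/C KO and 22357 to 25462 in control. No slow fiber marker of 8 and no heart marker of 4 passed on day 0, though the slow fiber sums did not overlap, at 60843 to 69674 in lamin A/C KO and 81171 to 81558 in control. The sums of 2 Schwann cell markers did not overlap either, at 6827 to 7656 in lamin A/C KO and 11139.7 to 12126 in control, and neither marker passed. The heart markers were dim: Nppa read 95.5 to 167 in lamin A/C KO against 42.6 to 101 in control, Myl7 4.96 to 34.3 against 14.8 to 98.2, and Myh6 8.16 to 18.1 against 6.23 to 51.3. None was listed at 0. Of 10 macrophage markers 2 were also higher, with sums of 8108 to 9558 in lamin A/C KO and 5195 to 7558 in control. In emerin KO minus control on day 3, 5 regenerating fiber markers were lower and 1 higher, with sums of 35452 to 39011 in emerin KO and 46937 to 52300 in control. On those arrays the fibroblast sums (2 of 6 markers lower) were 44791 to 52130.0 in emerin KO and 59619 to 59775 in control. The slow fiber sums (1 of 8 lower) were 14980.0 to 23836 in emerin KO and 25324.5 to 30122 in control. Of all genes 16.3% passed in emerin KO minus control on day 3, 8.92% as lower. The Gapdh ratio was high on the emerin KO arrays of that day. The part of these markers in the Sln differences was not tested.

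Atp2a1, Casq1, Ryr1, Tmem38a, Pvalb and Cacna1s shared a different pattern. Each passed as lower on day 3 and on day 4 than on day 0 in all 3 genotypes. Of all genes, 22.2% in emerin KO, 19.6% in lamin A/C KO and 14.2% in control passed as lower on day 3, and 20.8%, 18.2% and 14.3% in that order did on day 4. In either direction 44.2%, 39.2% and 33.8% passed on day 4. In whole muscle, fewer fibers and less RNA per fiber cannot be told apart. The promoters of these genes were searched because the genes fell together, and Casq2, which did not fall, was searched with them. RefSeq promoter entries (GRCm38.p6) were matched for 7 of the 9 genes, not for Sln and Atp2a2. The 7 genes have 8 promoters, 2 of them of Pvalb. The 250 bases before the start were searched on both strands for CAGCTG, a palindromic E-box of the kind bound by MyoD and its relatives. They were also searched for CTA and TAG separated by 4 free bases, which covers only some forms of the MEF2 site. Other forms of that site were not searched. CAGCTG was found in 3 of the 8 promoters, each of a different gene, and in 13.0% of all 32851 promoters. The CTA and TAG pattern was found in none of the 8 and in 3.2% of all promoters. The 3 promoters with the E-box, in capitals, are Atp2a1 at chr7:126463074-126463323 and Casq1 at chr1:172219896-172220145, both on the minus strand, and Cacna1s at chr1:136052561-136052810 on the plus strand. The motif begins 55, 195 and 123 bases before the start of transcription in Atp2a1, Casq1 and Cacna1s. A match describes the letters and no binding.
Atp2a1: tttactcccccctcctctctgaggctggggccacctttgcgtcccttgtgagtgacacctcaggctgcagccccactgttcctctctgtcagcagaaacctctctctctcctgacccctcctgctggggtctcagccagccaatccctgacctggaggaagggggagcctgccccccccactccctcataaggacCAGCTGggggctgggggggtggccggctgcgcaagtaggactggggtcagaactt
Casq1: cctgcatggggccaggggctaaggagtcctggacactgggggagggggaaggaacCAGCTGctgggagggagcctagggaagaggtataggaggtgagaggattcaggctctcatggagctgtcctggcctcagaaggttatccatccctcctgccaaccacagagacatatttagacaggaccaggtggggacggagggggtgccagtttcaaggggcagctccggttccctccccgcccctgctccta
Cacna1s: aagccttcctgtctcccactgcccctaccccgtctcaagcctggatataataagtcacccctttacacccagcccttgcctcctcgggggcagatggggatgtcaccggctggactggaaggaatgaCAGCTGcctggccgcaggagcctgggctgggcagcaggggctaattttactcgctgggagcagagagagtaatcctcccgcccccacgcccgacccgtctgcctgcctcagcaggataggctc

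The release machinery fell strongly. On day 3 Ryr1 read 2100.4, 2426 and 2878 in emerin KO, 2093, 2058 and 2449 in lamin A/C KO, and 2912 and 4417 in control. On day 0 it read 18782 and 17442 in emerin KO, 11910.5 to 14942 in lamin A/C KO, and 14474 and 16224 in control. The day 3 minus day 0 difference was -2.87 ± 0.19 in emerin KO, -2.61 ± 0.17 in lamin A/C KO and -2.09 ± 0.20 in control. No injured array reached any day 0 array. Within a genotype, day 3 and day 0 arrays stood apart for 57.8%, 55% and 67.3% of all genes in that order. Its partner Cacna1s read 379, 426 and 392 on day 3 in emerin KO, 484, 502 and 372 in lamin A/C KO, and 592 and 732 in control, against 2326 to 3939 on the day 0 arrays. Its differences were -3.08 ± 0.18, -2.52 ± 0.16 and -2.15 ± 0.19 in the same order. Emerin KO lay below control on every array on day 3, where arrays of these groups stood apart for 41.3% of all genes. By their brightest probe sets all 9 genes passed in control on day 3, 2 higher and 7 lower (1 of the 7 is Atp2a2, of which another probe set rose), where 34.3% of all genes were called, 20.1% higher and 14.2% lower. Their median was -2.09, against 0.085 over all genes.

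The pump and the store followed. Atp2a1 read 7991, 8825 and 7165 on day 3 in emerin KO, 7331, 8365 and 7349 in lamin A/C KO, and 7904 and 13072 in control, while the day 0 arrays lay between 29335 and 40462. The day 3 differences from day 0 were -2.08 ± 0.19, -2.21 ± 0.17 and -1.69 ± 0.21 in emerin KO, lamin A/C KO and control. For Casq1 they were -2.51 ± 0.18, -2.30 ± 0.16 and -2.15 ± 0.20. Casq1 read 2611, 3582 and 2528 on day 3 in emerin KO, 3289, 3246 and 3899 in lamin A/C KO, and 3901 and 5347 in control. Day 0 arrays lay between 14267 and 21799.5, so no genotype overlapped with its own day 0 (shares of all genes as given for Ryr1). Over all 23 arrays the 15 pairs among the 6 genes correlated at 0.762 to 0.978, a description of arrays that share the injury. Pvalb had the largest fall of the 6 in lamin A/C KO (-4.14 ± 0.43) and in control (-3.21 ± 0.52). Its control day 3 arrays disagreed, at 1266 and 6144, and the control difference was -4.34 or -2.09 when 1 of them was left out.

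**Figure D2:**
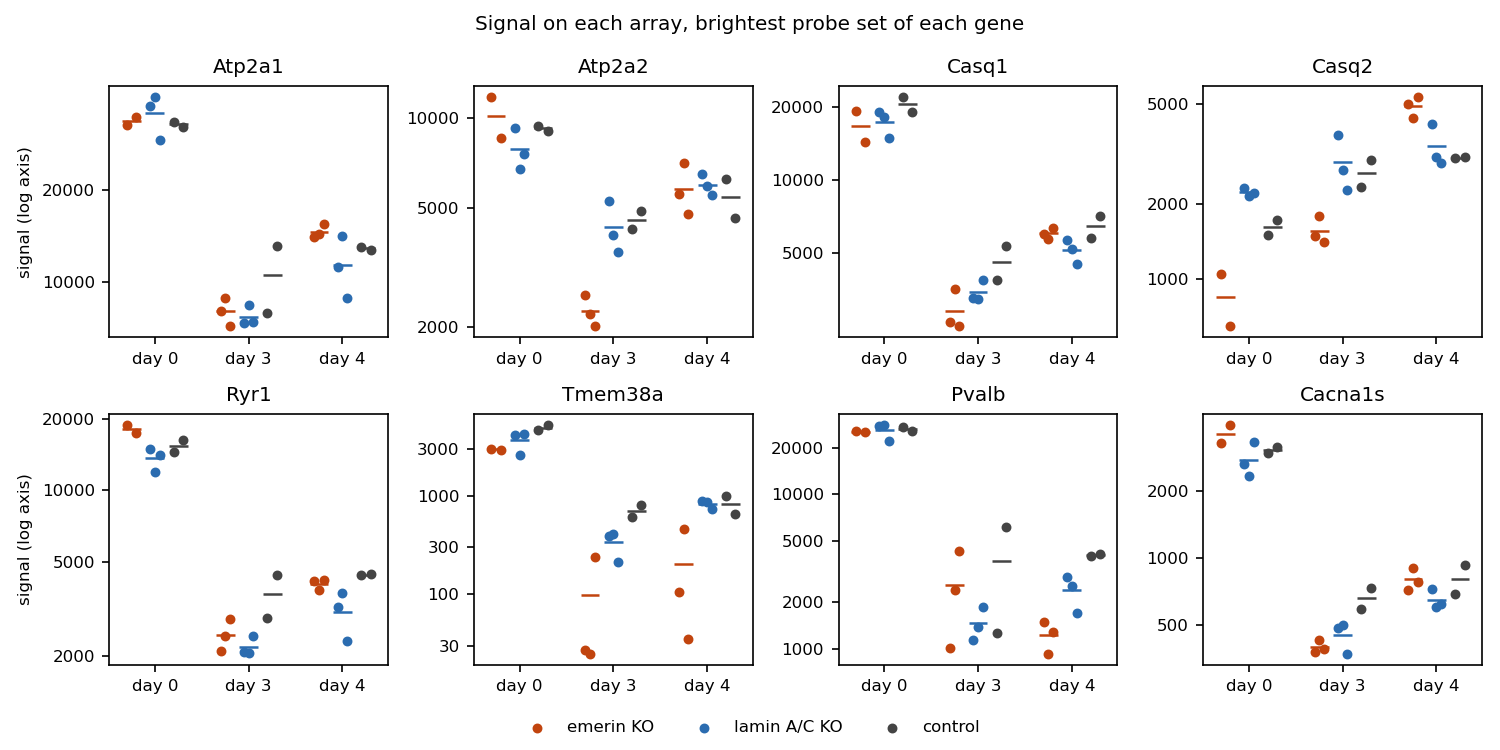
Signal (MAS5, trimmed mean 500, log axis) of the other 8 genes on each array by day, emerin KO, lamin A/C KO and control from left to right; points are arrays, bars are group means, and each gene is read by its brightest probe set. Atp2a1, Casq1, Ryr1, Tmem38a, Pvalb and Cacna1s drop between day 0 and day 3 in all genotypes, while Casq2 does not. Atp2a1 day 0 arrays lie between 29335 and 40462.

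By day 4 the emerin KO arrays had moved back up for most of the genes. Of the 9 genes, 7 passed as higher on day 4 than on day 3 in emerin KO, where 1.17% of all genes passed, 0.958% as higher. They were Sln (2.33 ± 0.19), Casq2 (1.64 ± 0.18), Atp2a2 by its brightest set (1.33 ± 0.17), Casq1 (1.06 ± 0.16), Cacna1s (0.94 ± 0.16), Atp2a1 (0.87 ± 0.17) and Ryr1 (0.72 ± 0.17). For Atp2a2, 1452363_a_at gave 1.77 ± 0.28, passed, and 1427250_at -0.42 ± 0.15, not passed. The Ryr1 call was lost in 9 of 33 alternatives, and the Atp2a1 call when the fit held only these groups. The Gapdh ratio also differed between these days. In lamin A/C KO only Sln passed (1.26 ± 0.19), where 2.04% of genes did. In control none of the 9 did, where 0.0448% did, with 2 at an unadjusted p under 0.05 by limma. Of the 11164 genes tested, 531 had such an unadjusted p in control. Differences of day 4 minus day 3 in the 6 genes that fell together were 0.46 to 1.26 in lamin A/C KO and 0.20 to 0.52 in control. Whether the genotypes differ in this step was not tested.

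Casq2, the calsequestrin of heart and slow fibers, went the other way from Casq1. Its signal was 1047 and 649 on day 0, 1484, 1789 and 1401 on day 3, and 5025, 4415 and 5332 on day 4 in emerin KO. In lamin A/C KO it was 2304, 2146 and 2215 on day 0, 3785, 2729.7 and 2267 on day 3, and 4182, 3083 and 2922 on day 4. In control it was 1502 and 1722, then 2329 and 2991, then 3056 and 3067 on those days. The emerin KO arrays were the lowest of the 3 genotypes on day 0 and day 3 and the highest on day 4. Of all genes, emerin KO and control arrays stood apart for 44.1%, 41.3% and 37.2% on days 0, 3 and 4. For emerin KO and lamin A/C KO the shares were 30.7%, 28.6% and 34.6%. The probe set is of the _s_at type, which may share signal with relatives. Day 4 minus day 0 was 2.53 ± 0.21 in emerin KO, 0.59 ± 0.18 in lamin A/C KO and 0.92 ± 0.23 in control, all passed. The lamin A/C KO call was lost without lamin A/C KO day 4 replicate 1 (0.43). Control day 3 minus day 0 was 0.70 ± 0.23 and did not pass with median scaling (0.54) or without control day 0 replicate 1 (0.61) or control day 3 replicate 2 (0.53).

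Against control, Casq2 in emerin KO was -0.94 ± 0.23 on day 0, -0.76 ± 0.21 on day 3 and 0.68 ± 0.21 on day 4. The day 0 and day 3 differences passed, where 3.26% and 16.3% of all genes did, and the day 4 difference did not, though it did in 8 of 34 alternatives. The day 0 call was lost without emerin KO day 0 replicate 2 (-0.60) and without either control day 0 array (-1.03 and -0.84), and the day 3 call without control day 3 replicate 2 (-0.58). On the day 0 arrays 3 of 9 regenerating fiber markers were lower, with sums of 14227 to 17368 in emerin KO and 22357 to 25462 in control. So were 3 of 6 fibroblast markers, with sums of 34983 to 53314 in emerin KO and 71708 to 83494 in control, and the part of these markers in the Casq2 difference was not tested. The emerin KO change by day 4 exceeded that of control by 1.61 ± 0.31, which passed. That call was lost in 6 of 34 alternatives, among them leaving out emerin KO day 0 replicate 2 (1.28), control day 0 replicate 2 (1.52) or control day 4 replicate 1 (1.61) and leaving out the arrays of Gapdh ratio over 2 (1.46). Casq2 did not pass between lamin A/C KO and control on any day (0.46, 0.12 and 0.13).

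Atp2a2 depended on the probe set. The brightest, 1416551_at, read 2555, 2217 and 2017 on day 3 and 11738 and 8605 on day 0 in emerin KO, 3575 to 5279.5 on day 3 and 6745 to 9259 on day 0 in lamin A/C KO, and 4256 and 4880.1 on day 3 and 9419 and 9067 on day 0 in control. The second, 1427250_at, read 4058, 4799.5 and 4913 on day 3 and 1759 and 2527 on day 0 in emerin KO, and 4036 and 3661 on day 3 and 1651 and 2236 on day 0 in control. The first fell and the second rose in every genotype. Day 3 minus day 0 was -2.14 ± 0.20, -0.87 ± 0.17 and -1.01 ± 0.21 by the first in emerin KO, lamin A/C KO and control, and 1.11 ± 0.17, 1.24 ± 0.15 and 0.99 ± 0.18 by the second. Next in brightness, 1452363_a_at moved like the first (-3.02 ± 0.32, -0.83 ± 0.28 and -1.15 ± 0.35), and the dim 1427251_at did not pass in any genotype (-0.38, 0.18 and 0.24). In emerin KO minus control on day 3, 1452363_a_at gave -1.78 ± 0.32, passed, and 1427250_at 0.25 ± 0.17, not passed. The emerin KO change to day 3 by the brightest set differed from that of control by -1.13 ± 0.29, which passed but was lost in 13 of 33 alternatives. With the mean of all probe sets the control difference from day 0 was -0.23 and did not pass. A direction for Atp2a2 as a whole is therefore not given. Atp2a1, Casq1, Casq2, Ryr1, Pvalb and Cacna1s have 1 probe set each.

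**Figure D3:**
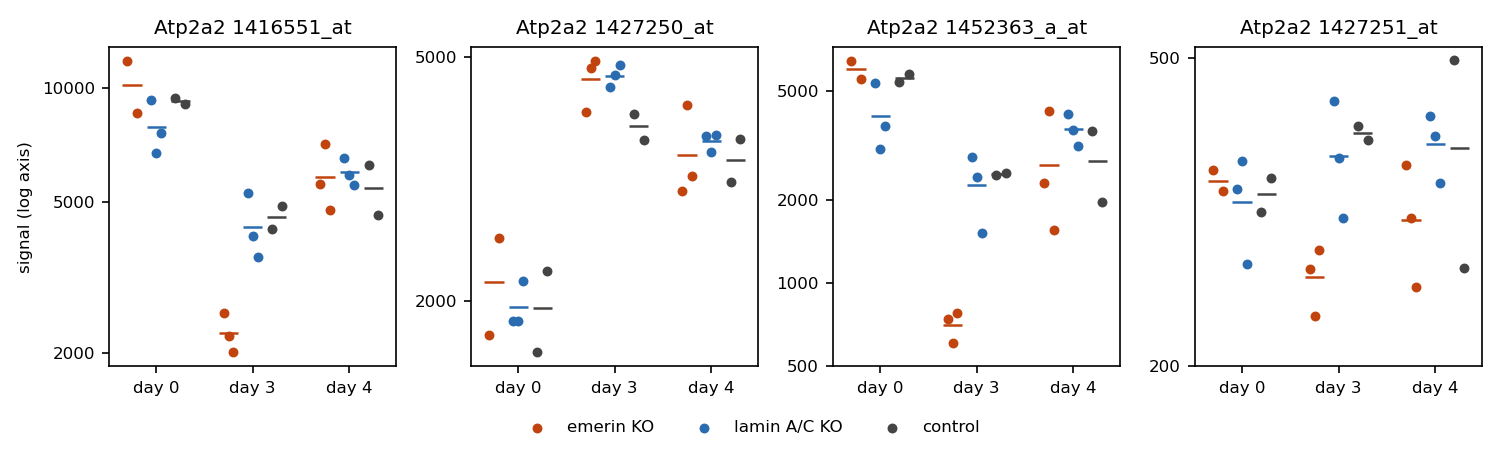
Signal (log axis) of the 4 Atp2a2 probe sets, brightest on the left, on each array by day, emerin KO, lamin A/C KO and control from left to right; points are arrays and bars are group means. Day 3 lies below day 0 in 1416551_at and 1452363_a_at and above it in 1427250_at.

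On day 3, emerin KO muscle was lower than control for most of the genes. Of the 9, 7 passed as lower and none as higher in emerin KO minus control, where 8.92% of all genes passed as lower. Beside Sln these were Tmem38a (-2.90 ± 0.59), Atp2a2 (-1.01 ± 0.20 by its brightest set), Casq2, Cacna1s (-0.68 ± 0.18), Casq1 (-0.66 ± 0.18) and Ryr1 (-0.55 ± 0.19). The Gapdh ratio was high on all 3 of these arrays. With the ratio as a covariate the Sln call alone was kept, and Tmem38a turned to 0.79. The Ryr1 call was lost in 25 of 33 alternatives, and those of Casq1 and Cacna1s among others without control day 3 replicate 2 (-0.44 and -0.54). Of 10 mature fast fiber markers 3 were also lower, with sums of 62076 to 72808 in emerin KO and 85362 to 119186 in control, and their part in these differences was not tested.

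Tmem38a was dim on the emerin KO arrays. Its brighter probe set read 27.3, 25.2 and 242 in emerin KO on day 3, 388, 411 and 214 in lamin A/C KO, and 608 and 801 in control. Only 1 of the 3 emerin KO arrays reached the minimum of 100 there. The other probe set read 189.8, 163 and 250.4 in emerin KO, 509, 262 and 243 in lamin A/C KO, and 479.8 and 659 in control, and gave -1.37 ± 0.25 for emerin KO minus control, also passed. On day 4 the brighter set read 106, 466 and 35.0 in emerin KO, against 984 and 661 in control. The day 4 difference was -2.33 ± 0.59 by this set and -0.86 ± 0.25 by the other, and both passed. The call of the brighter set was lost without emerin KO day 4 replicate 1 (-2.20) or 3 (-1.68) and without control day 4 replicate 1 (-2.06) or 2 (-2.61). Without the arrays of Gapdh ratio over 2 it was -0.75, with the Gapdh covariate it was -0.12, and neither passed.

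On day 4 the calls in emerin KO minus control were Sln, Tmem38a and Pvalb, where 5.87% of all genes passed, 3.29% as lower. Pvalb read 1494, 929 and 1275 in emerin KO, 2895, 2550.0 and 1701 in lamin A/C KO, and 3977 and 4089 in control. Emerin KO did not overlap with the other genotypes. On that day emerin KO arrays stood apart from control for 37.2% of all genes and from lamin A/C KO for 34.6%. Emerin KO minus control was -1.71 ± 0.48. The call was lost in 9 of 34 alternatives, including leaving out any emerin KO or control array of that day (-1.86 to -1.52). In addition, 3 slow fiber markers were lower on the same arrays, Myh7 (-1.70), Myl2 (-1.52) and Myl3 (-1.64), of 8 measured. The slow fiber sums were 33028 to 41422 in emerin KO and 32294 to 33167 in control. No mature fast fiber marker of 10 passed, but their sums did not overlap, at 97795 to 108711 in emerin KO and 114957 to 134139 in control. Of 3 fat markers 2 were lower, with sums of 4937 to 6729 in emerin KO and 11788 to 12176 in control. The part of these markers in the Pvalb difference was not tested.

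**Figure D4:**
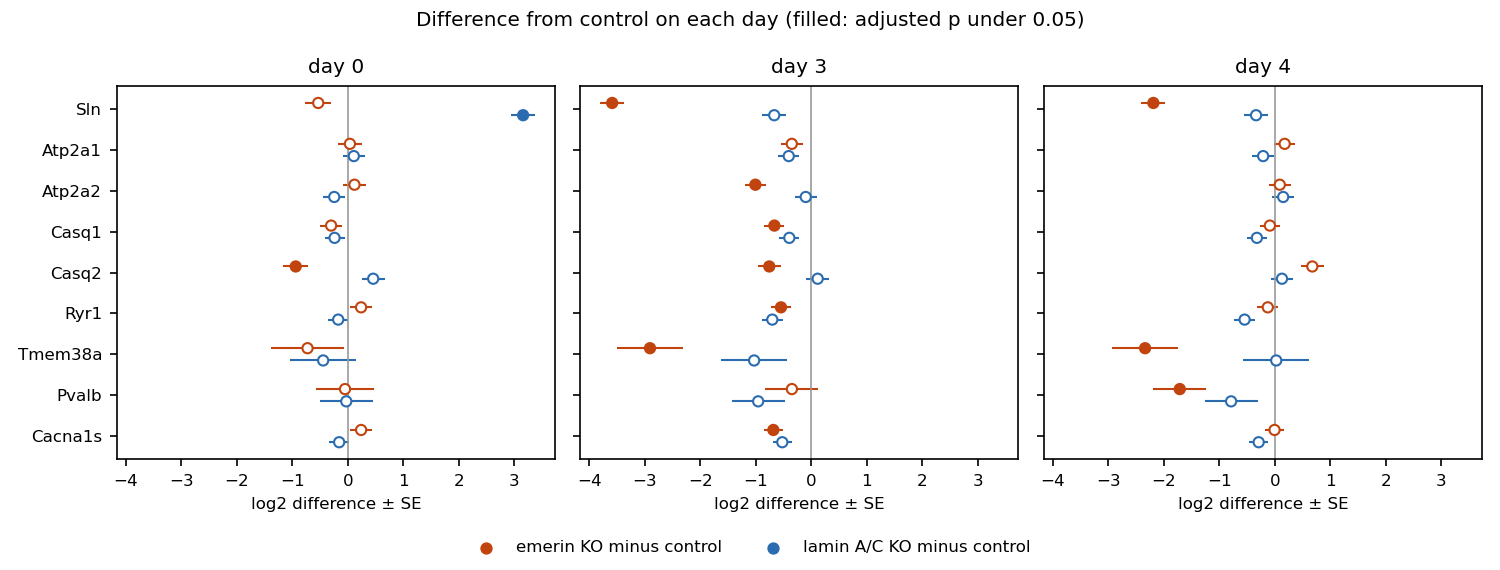
Log2 difference of (signal + 32), emerin KO minus control and lamin A/C KO minus control, for each gene on days 0, 3 and 4; whiskers are SE, and filled points passed an adjusted p of 0.05. Lamin A/C KO has 1 filled point in all, Sln on day 0 at 3.16, and most filled emerin KO points are on day 3.

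None of the 9 genes passed between lamin A/C KO and control after injury, where 0.0269% of all genes passed on day 3 and 0.0448% on day 4. At an unadjusted p under 0.05 in limma, 5 of the 9 did on day 3 and 1 on day 4. Of the 11164 genes tested, 809 did so on day 3 and 540 on day 4. Differences of the 6 genes that fell together after injury were -1.03 to -0.39 on day 3 and -0.79 to 0.03 on day 4. Between the knockouts, Casq2 was -1.39 ± 0.21, -0.87 ± 0.18 and 0.55 ± 0.18 in emerin KO minus lamin A/C KO on days 0, 3 and 4, each passed, where 6.3%, 9.95% and 16.4% of genes did. The day 3 call was lost with the Gapdh covariate (-0.93). That of day 4 was lost in 20 of 34 alternatives (0.39 to 0.55). Tmem38a passed as lower in emerin KO than in lamin A/C KO on day 3 (-1.87 ± 0.53, and -0.61 ± 0.22, not passed, by its other set), with overlapping arrays. It also passed on day 4 (-2.36 ± 0.53, and -0.65 ± 0.22, passed, by the other set). The day 3 call was lost without emerin KO day 3 replicate 1 (-1.52) or 2 (-1.49) or lamin A/C KO day 3 replicate 1 (-1.76) or 2 (-1.72). Both days turned positive with the Gapdh covariate (0.98 and 0.37), and day 4 did not pass without the arrays of Gapdh ratio over 2 (-0.78). Atp2a2 passed as lower on day 3 by its brightest set (-0.91 ± 0.17) and by 1452363_a_at (-1.60 ± 0.28), not by 1427250_at (-0.02 ± 0.15), and its brightest set did not pass with the Gapdh covariate (-0.31). Atp2a1 did not pass between genotypes on any day, with differences of -0.07, 0.05 and 0.39 between emerin KO and lamin A/C KO.

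A wider set of calcium genes was counted beside the 9. Of 80 symbols in 5 lists, 58 had a probe set and 57 were tested. In control on day 3, 11 rose and 23 fell, with a list median of -0.44, where 20.1% of all genes rose and 14.2% fell. In the release and junction list, 12 of 20 fell and 1 rose in control, led by triadin (Trdn, -3.14 ± 0.36, adjusted p = 4.3e-07), junctate and junctin (Asph, -2.85 ± 0.24, adjusted p = 9.1e-09), Sypl2 (-2.75 ± 0.24, adjusted p = 1.3e-08) and Homer2 (-2.54 ± 0.25, adjusted p = 7.7e-08). Triadin, which ties calsequestrin to Ryr1, averaged 1138 in emerin KO, 1046 in lamin A/C KO and 1487 in control on day 3, and 16479, 13164 and 13761 in the same order on day 0. Of 4 further Asph probe sets, 2 had the opposite sign and did not pass.

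In the list of endoplasmic reticulum and cytosolic calcium binding genes, 7 of 10 rose and none fell in control on day 3, where 20.1% of all genes rose, with Rcn1 (1.57 ± 0.23, adjusted p = 1.1e-05), Rcn3 (1.07 ± 0.21, adjusted p = 0.00026), the IP3 receptor Itpr3 (0.97 ± 0.29, adjusted p = 0.012) and Calu (0.92 ± 0.14, adjusted p = 2.3e-05). Reticulocalbins and calumenin are chaperone-like proteins of the secretory pathway. Macrophage markers rose in the same comparison, 10 of 10, with sums of 53896 to 56022 on control day 3 arrays and 5195 to 7558 on day 0 arrays, and their part in these rises was not tested. In the pumps and regulators list 2 of 8 rose, the Golgi pump Atp2c1 (1.12 ± 0.26, adjusted p = 0.0019) and the mitochondrial exchanger Slc8b1 (0.67 ± 0.25, adjusted p = 0.04). The store sensor Stim1 fell (-1.51 ± 0.36, adjusted p = 0.0022). In the calcineurin and CaMK list 9 of 16 fell and 1 rose, with the calcineurin-binding Z-disc proteins Myoz1 (-3.19 ± 0.25, adjusted p = 2.7e-09) and Myoz2 (-2.14 ± 0.20, adjusted p = 3.8e-08), the calcineurin regulator Rcan2 (-2.93 ± 0.34, adjusted p = 4.9e-07) and the kinase Camk2a (-1.66 ± 0.47, adjusted p = 0.0076). Of 3 mitochondrial genes Letm1 fell (-0.97 ± 0.35, adjusted p = 0.034), and 1 of its 3 other probe sets had the opposite sign.

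**Figure D5:**
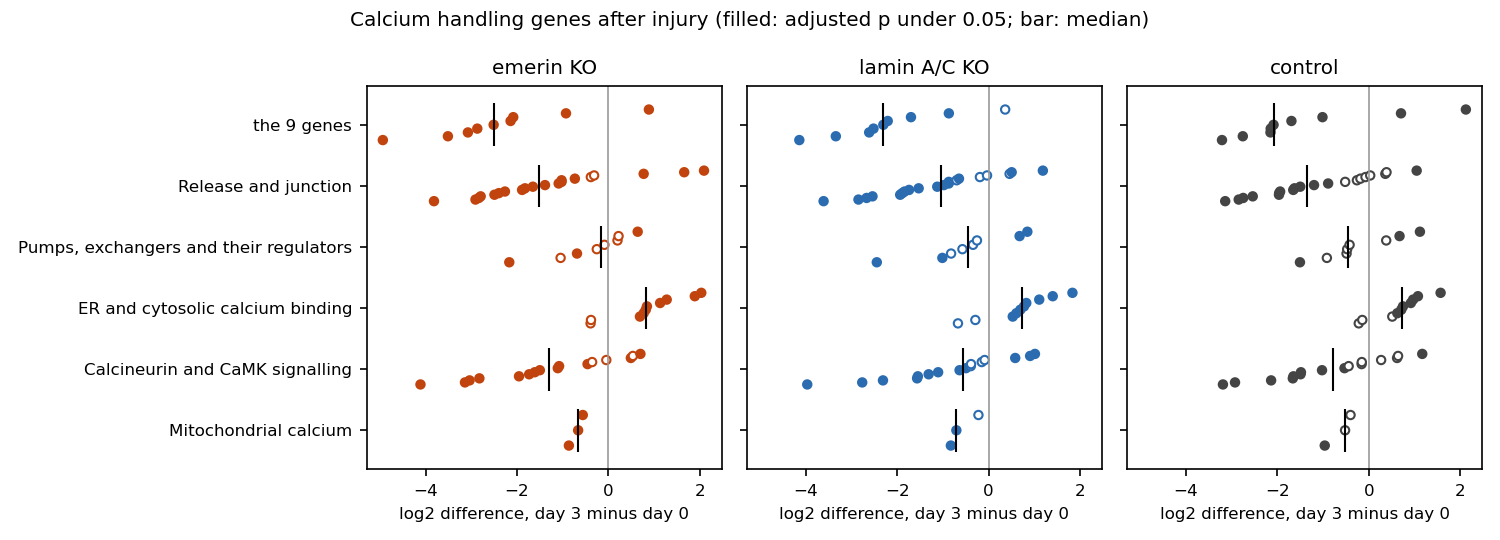
Log2 difference of (signal + 32), day 3 minus day 0, in emerin KO, lamin A/C KO and control, for the 9 genes and the genes of 5 calcium lists; each point is a gene, filled points passed an adjusted p of 0.05, and black bars are list medians. The median of the 9 genes in control is -2.09.

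Of the 57 genes, 14 rose and 31 fell in emerin KO and 15 rose and 27 fell in lamin A/C KO on day 3, where 46.1% and 43% of all genes passed. On day 4 against day 0, 12 rose and 27 fell in emerin KO, 11 rose and 29 fell in lamin A/C KO, and 13 rose and 23 fell in control, where 44.2%, 39.2% and 33.8% of all genes passed. Between days 3 and 4, 5 of the 57 rose in emerin KO, 2 in lamin A/C KO and none in control, where 1.17%, 2.04% and 0.0448% of all genes passed. In control 5 of the 57 had an unadjusted p under 0.05 by limma, as did 531 of the 11164 genes tested. In emerin KO Myoz2 (1.28 ± 0.17, adjusted p = 0.00011), Myoz1 (1.10 ± 0.20, adjusted p = 0.0045), Sypl2 (1.14 ± 0.20, adjusted p = 0.0027), Hrc (1.13 ± 0.15, adjusted p = 0.00011) and Cacnb1 (0.86 ± 0.15, adjusted p = 0.0032) were higher on day 4. In lamin A/C KO these were Myoz1 (1.58 ± 0.20, adjusted p = 0.00024) and Sypl2 (1.05 ± 0.20, adjusted p = 0.0062). Between lamin A/C KO and control none of the 57 passed on day 0, 3 or 4, with 11, 7 and 3 at an unadjusted p under 0.05 by limma. Of the 11164 genes tested, 1152, 809 and 540 had such an unadjusted p on these days. Nearest on day 0 was Tmem38b, the relative of Tmem38a in many tissues (0.92 ± 0.22, adjusted p = 0.0505, not passed). Phospholamban (Pln), the relative of sarcolipin in heart and slow muscle, averaged 230.0 ± 111 in emerin KO, 264 ± 113 in lamin A/C KO and 285 ± 16.2 in control on day 0 (SD, n = 2, 3 and 2).

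Between emerin KO and control on day 3, 10 of the 57 were lower and none higher, where 16.3% of all genes passed, 8.92% as lower. Of these, 4 were in the calcineurin and CaMK list: the calcineurin subunit Ppp3cb (-1.53 ± 0.34, adjusted p = 0.0039, and -0.40 by its other probe set), Camk2d (-1.37 ± 0.34, adjusted p = 0.0077), Myoz2 (-1.19 ± 0.18, adjusted p = 0.00019) and Myoz1 (-0.81 ± 0.23, adjusted p = 0.017). In the release and junction list they were the caveolin Cav3 (-0.90 ± 0.25, adjusted p = 0.014), Sypl2 (-0.89 ± 0.22, adjusted p = 0.0074), the store protein Hrc (-0.72 ± 0.16, adjusted p = 0.0046) and the channel subunit Cacnb1 (-0.61 ± 0.17, adjusted p = 0.016), whose other probe set read 0.04. The others were Atp2c1 (-0.997 ± 0.24, adjusted p = 0.0066) and Rcn3 (-0.68 ± 0.19, adjusted p = 0.016). These are the arrays of high Gapdh ratio. On day 0, Rcn3 (-1.50 ± 0.21, adjusted p = 0.00015) and Rcn1 (-1.07 ± 0.23, adjusted p = 0.0091) were lower in emerin KO and the channel subunit Cacng1 was higher (0.62 ± 0.17, adjusted p = 0.049), where 3.26% of all genes passed. Beside the fibroblast sums given with Casq2, 1 of 2 Schwann cell markers was lower on these arrays, with sums of 4024 to 6043 in emerin KO and 11139.7 to 12126 in control, and their part in these differences was not tested. In emerin KO minus lamin A/C KO, 4 of the 57 were lower on day 0, 6 lower and 1 higher on day 3, and 5 lower and 2 higher on day 4. Of all genes 6.3%, 9.95% and 16.4% passed on these days. Among the lower genes was Camk2d on day 3 (-1.14 ± 0.30, adjusted p = 0.019) and day 4 (-1.06 ± 0.30, adjusted p = 0.02). On day 4 against control, 2 of the 57 were lower in emerin KO and none higher, where 3.29% of all genes passed as lower. They were Ppp3cb (-1.27 ± 0.34, adjusted p = 0.033) and Rcan2 (-1.05 ± 0.31, adjusted p = 0.047).

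The genes closest to Sln in pattern were ranked by Pearson's r of log2 signal, which describes these arrays only. Over all 23 arrays they were the integrin subunit Itgb1 (0.89), the lipid phosphatase Plpp1 (0.87), Slc35f5 (0.86), Cnih1 (0.855) and the glycogen-binding Stbd1 (0.852). Over the 16 arrays of days 3 and 4 they were the zinc finger protein Plagl1 (0.98), periostin (Postn, 0.97), Nrk (0.96), cadherin-11 (Cdh11, 0.96) and thrombospondin-2 (Thbs2, 0.96). The arrays share genotype, day and RNA quality, and the emerin KO arrays of high Gapdh ratio are among them. Closest to Atp2a1 were the glycolytic genes Pfkm (0.98) and Pgam2 (0.98), then Tecr (0.98), Casq1 (0.97) and Art1 (0.97). Closest to Atp2a2, by its brightest set, were Mef2c (0.94), Capn3 (0.93), Acsl6 (0.93), Lmod2 (0.92) and Fech (0.92).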

How the data were processed

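The authors deposited MAS5 signals, an intensity on a linear scale with 1 value per probe set and array, made with MAS5 per the submitters' processing notes. The MAS5 version and the scanner steps are not given in the sources used here. Each array's trimmed mean (2% off either end) lay at 150.04 to 150.06 as deposited, and no arrays were identical. Arrays were rescaled to a trimmed mean of 500 and log2(signal + 32) was taken. MAS5 subtracts mismatch signal, so dim values are noisy. Of 22690 probe sets, 64 were Affymetrix controls, 691 had several gene symbols, 1555 had none and 20380 had 1. The probe set with the highest mean signal stood for each of 12393 genes, and the 11164 genes that reached a signal of 100 on 2 or more arrays were tested. Sequences are from RefSeq (GRCm38.p6).

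All 9 groups were fitted together with limma 3.58.1 (R 4.3.3, trend=TRUE), giving 22 comparisons with p-values adjusted within each by Benjamini-Hochberg, and each probe set was also fitted among 17771. The fit was tested on simulated data. Groups came from titles and descriptions. The 9 genes and the lists were chosen with earlier results of these data known. The 9 genes were named in the comparisons described, with Emd and Lmna as a check of the labels. Of each list, up to 4 called genes with the largest change were named (where none passed, at most 2 by lowest p), with the 5 genes nearest in pattern. Other list genes were counted. The alternatives were 11 settings and leaving out each of the 23 arrays. The number of arrays limits the precision. Figures used matplotlib 3.10.9.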

Additional observations from a re-analysis of the deposited data

Results flagged for a closer look

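Among the 9 genes, 6 knockout changes after injury differed from the control change past the threshold of the interaction test. For Sln the change from day 0 to day 3 was lower than in control by -3.052 ± 0.32 in emerin KO and by -3.823 ± 0.305 in lamin A/C KO (log2, SE), and the change to day 4 by -1.654 ± 0.32 and -3.493 ± 0.305. In lamin A/C KO the Sln arrays of day 0 lay far above control, and in emerin KO those of day 3 lay far below it. The lamin A/C KO day 0 arrays are labelled as after an injection, those of control as non-injected. For Atp2a2, by its brightest probe set, the emerin KO change to day 3 differed from control by -1.127 ± 0.289, and the Gapdh ratio was high on the same arrays. For Casq2 the emerin KO change to day 4 exceeded that of control by 1.613 ± 0.306.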

How the results depend on the processing

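The 9 genes gave 59 calls in the 9 injury comparisons, 12 in the 6 of knockout minus control, 9 in the 3 of emerin KO minus lamin A/C KO and 6 in the 4 interactions. Leaving out 1 array at a time gave 57 to 60, 8 to 13, 7 to 9 and 3 to 7 of these, 252 to 290 list calls (276 with all arrays) and 95 to 110 probe set calls (110). The fewest interactions, 3, came without control day 0 replicate 2. With an array left out, emerin KO minus control had 0 to 1 calls on day 0, 3 to 8 on day 3 (the fewest without control day 3 replicate 2) and 1 to 4 on day 4, and its interactions had 1 to 3 for day 3 and 0 to 2 for day 4. The arrays that moved such a count by over 1.5 times were, on day 0, emerin KO replicate 2 and both controls, on day 3, emerin KO replicate 2, lamin A/C KO replicate 2 and both controls, and, on day 4, emerin KO replicates 1 and 3 and both controls. Emerin KO day 3 comparisons have no value without the arrays of Gapdh ratio over 2, since all 3 arrays of that group are over it.

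With the Gapdh ratio as a covariate the calls were 4 for knockout minus control, 3 for emerin KO minus lamin A/C KO and 3 for the interactions. By comparison it left 1 call in emerin KO minus control on day 3 and 1 on day 4, 1 in emerin KO minus lamin A/C KO on day 3 and 0 on day 4, and 1 and 0 in the emerin KO interactions of days 3 and 4. Tmem38a reversed with this covariate, to 0.79 in emerin KO minus control on day 3 and to 0.98 and 0.37 in emerin KO minus lamin A/C KO on days 3 and 4, and the cause was not tested. In the fit of only the compared groups, which has fewer samples, the interactions had 3 calls, 1 on day 3 and 0 on day 4 in emerin KO, emerin KO minus control on day 0 had 0, and lamin A/C KO day 4 minus day 3 had 3. That last comparison (1 call) had 2 with quantile normalization, 0 with all probe sets averaged and 2 without the arrays of Gapdh ratio over 2. Without those arrays emerin KO minus control and emerin KO minus lamin A/C KO each had 1 call on day 4 and the emerin KO interaction on day 4 had 0, with fewer samples. The emerin KO interaction on day 3 had 1 call with median scaling, with the mean of all probe sets and with no intensity trend, and that on day 4 had 1 with the mean of all probe sets. The causes were not tested.

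Whether the replicate numbers pair the arrays was not settled. Over 82 same-numbered pairs of arrays from different groups the mean correlation of deviations was 0.041 (range -0.301 to 0.394), with 26 above 0.1. Over 152 other-numbered pairs it was -0.0221 (range -0.456 to 0.456), with 28 above 0.1. Deviations from the mean of a few arrays oppose each other within a group, so these values cannot exclude pairing. The fit with the replicate block gave 12 calls for knockout minus control, 60 for injury, 9 for emerin KO minus lamin A/C KO and 6 interactions, with 275 list calls and 109 probe set calls. Over single values of the 9 genes, 6516 kept their side of the threshold, with no change of sign where the value had passed (values that did not pass could change sign), 141 lost the call, 27 gained it and 3 reversed. Probe sets near the minimum of 100, such as Tmem38a after injury in emerin KO, limit what these arrays resolve.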
